A study of Mus musculus with 5 samples.

Results

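Genes of heparan sulfate were followed in the dorsal pancreatic bud of the mouse at E10.5, when the bud is newly formed. Of the 37 genes chosen for their role in making, modifying, trimming or carrying heparan sulfate, 35 had a probe set named for them alone, out of 18193 genes named in this way on the arrays. Xylt1 and Ndst1 were not analysed here. Each gene was read from its probe set with the highest mean signal over the 5 arrays, and the 35 genes together had 80 probe sets. Probe sets were chosen by signal over both groups and not by how they differed between groups.

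The study compared Ptf1a null buds (3 arrays) with Ptf1a heterozygous buds (2 arrays), all on the C57BL/6J strain. Both groups came from matings of heterozygous mice, so the comparison group also carries a mutant copy of Ptf1a and no wild-type buds enter any comparison. Mesenchyme was removed mechanically, and the RNA of 3 buds was pooled for each array and linearly amplified in 2 rounds. The labels name no allele, do not say which part of Ptf1a is missing and do not tie pools to litters, so the spread between arrays may be partly technical.

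Heparan sulfate is a long, sulfated sugar chain attached to a core protein at the cell surface or in the basement membrane. Glycosyltransferases first build a short linker on the core protein and then extend the chain, after which sulfotransferases and an epimerase write a pattern of charged groups that FGF, Wnt, Hedgehog and BMP ligands recognise. Many of these ligands act on the early pancreatic bud, and the chains shape how far they spread and how well they reach their receptors.

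Of the array-wide facts that bear on these genes, median intensity ran from 13.7 to 17.5 over the arrays and 60.9% to 65.2% of probe sets lay above a background level, set on each array at the 95th percentile of 27 Bacillus subtilis control probe sets (3.03 to 3.29 on the normalised log2 scale). Correlations between arrays ranged from 0.838 to 0.862 without separating the genotypes. Ptf1a had log2 signals of 7.10 and 7.33 in heterozygotes and 5.21, 6.07 and 5.00 in nulls (log2 change -1.79, SE 0.47, limma adjusted p = 0.651). All 9 measured markers of bud epithelium, among them Cdh1, Epcam and Pdx1, were above background on every array.

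Most heparan sulfate genes were detected in the bud. On all 5 arrays 26 of the 35 genes were above background, 6 were above it on some arrays, and Ndst3, Hs3st1 and Hs6st3 were above it on none. No gene differed between null and heterozygote past the threshold. The limma fit with 1 prior variance (untrended fit), adjusted by Benjamini-Hochberg over 45037 probe sets, called 0 of the 35 genes at the threshold of 0.05, and Sulf1 had the lowest adjusted p, 0.505. It also called 0 of all probe sets, a background of 0%. The fit that lets the prior variance follow signal level, estimated robustly (trended fit), called 0 of the 35, against 8 of all probe sets or 0.0178%. At an unadjusted p under 0.05 the untrended fit held 1 of the 35 (Sulf1) and the trended fit held 2 (Sulf1 and Gpc3), against 4.47% of 18193 genes read in the same way in either fit. An absolute log2 change of 1 or more was found for 5 of the 35, against 18.8% of those genes, and only Sulf1 of the 5 was above background on every array.

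**Figure D1:**
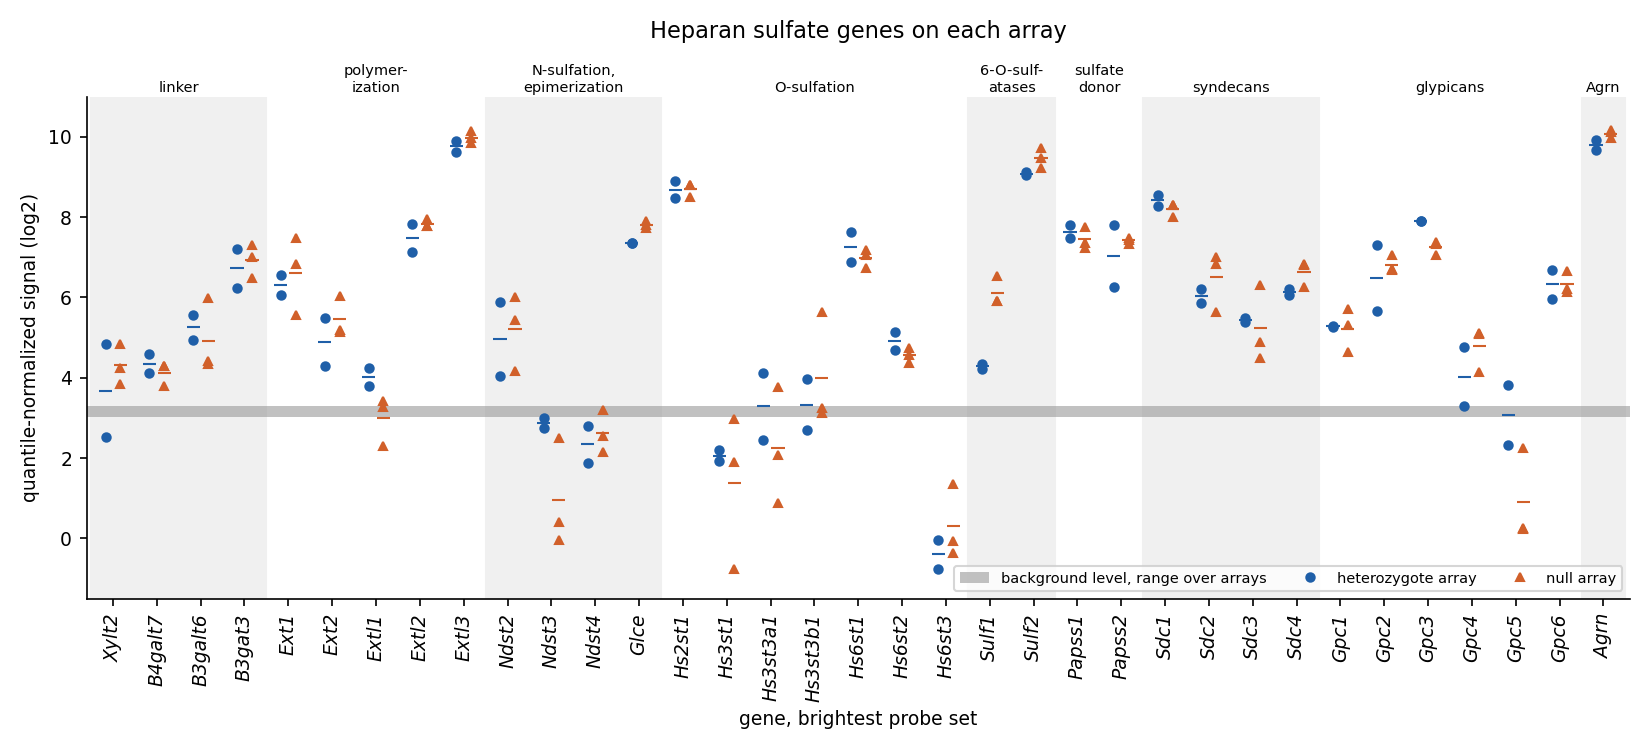
Normalised log2 signal (vertical axis) of the brightest probe set of each of the 35 heparan sulfate genes, grouped by role. Circles are the 2 heterozygote arrays, triangles the 3 null arrays, short lines group means and the grey band the background level of 3.03 to 3.29. The null values of Sulf1 lie at 5.90 or above and its heterozygotes at 4.33 or below, and Ndst3, Hs3st1 and Hs6st3 stay under the band.

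The null and heterozygote values did not overlap for 9 genes, 5 with every null array above both heterozygotes and 4 with every null array below. The background among genes read in the same way was 9.82% for the first pattern and 10.1% for the second, or 19.9% in all, so 9 of 35 is near the background. The 5 were Glce, Sulf1, Sulf2, Sdc4 and Agrn, and the 4 were Extl1, Ndst3, Gpc3 and Gpc5. The median log2 change of the 35 genes was 0.226, with 21 positive and 14 negative, against a median of -0.012 over 18193 genes, of which 49.1% were positive. It was 0.021 when every value was raised to at least the background level, 0.022 without heterozygote replicate 2, and -0.032 without heterozygote replicate 1. The medians of all probe sets in those settings were -0.06, -0.035 and -0.044. A mean over all probe sets of each gene gave -0.189. This mean takes in dim probe sets, as 5 of the 45 other than the brightest were above background on no array. No array-wide value of the same kind is set beside it. The direction of the group was thus not settled.

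**Figure D2:**
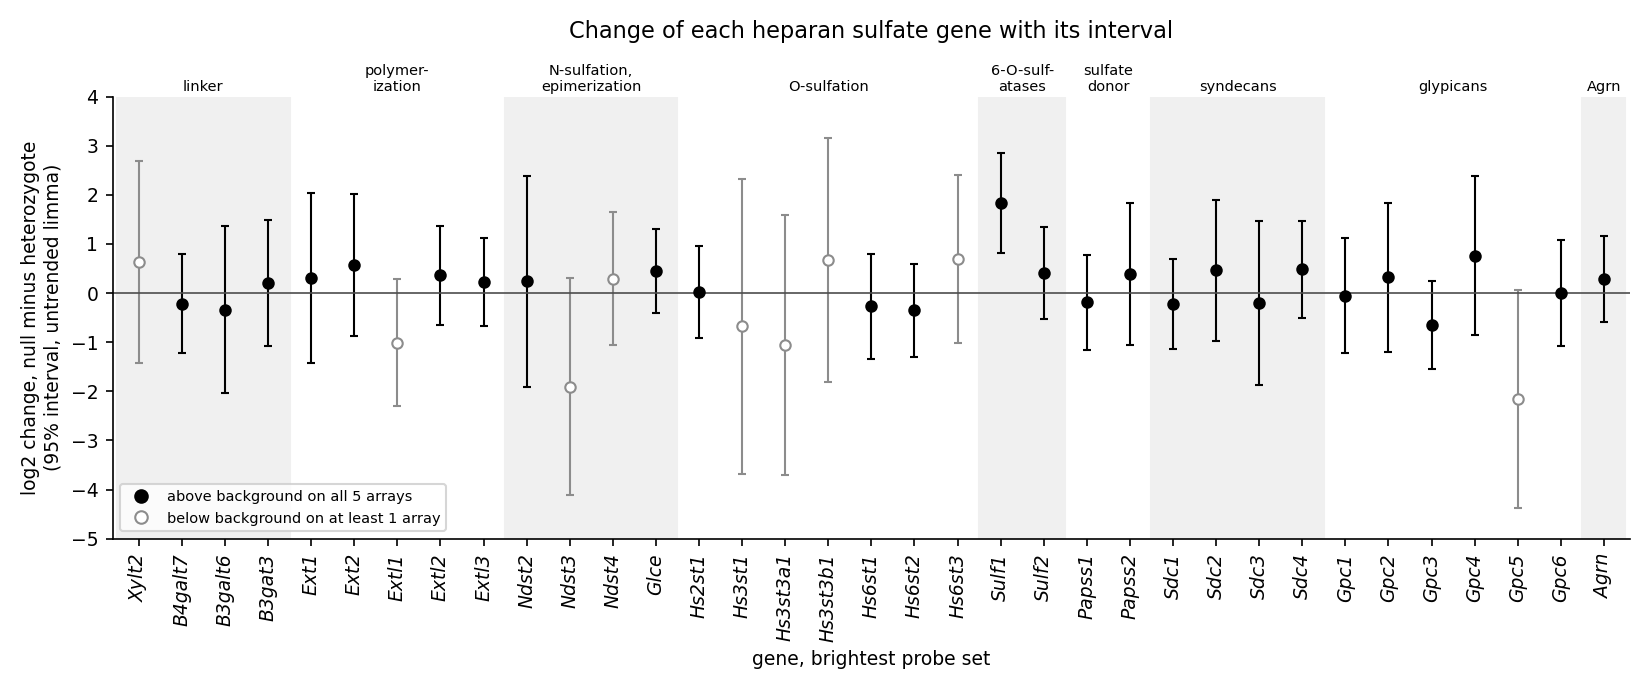
Log2 change, null minus heterozygote, of each heparan sulfate gene with its 95% interval from the untrended limma fit. Filled points were above background on all 5 arrays and open points were not. Only the interval of Sulf1 (0.82 to 2.86, not adjusted for the number of probe sets) lies clear of 0.

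Chain synthesis starts with a linker, whose first enzyme adds xylose to a serine of the core protein. Xylt2, a xylosyltransferase, was above background on all 3 null arrays and on 1 of 2 heterozygote arrays, with a log2 change of 0.63 (SE 0.80). B4galt7 and B3galt6, which add its galactoses, had changes of -0.22 (SE 0.39) and -0.34 (SE 0.66). B3gat3, which adds the closing glucuronic acid, read 7.21 and 6.24 in heterozygotes and 7.0, 6.48 and 7.31 in nulls. The groups covered the same range, with a log2 change of 0.21 (SE 0.50, 95% interval -1.07 to 1.49). None of the 4 linker genes had groups that stood apart at its brightest probe set. At second probe sets above background on every array, all nulls lay below both heterozygotes for B3galt6 and B3gat3. The changes were -0.92 for B3galt6 (1421155_at, SE 0.52, limma adjusted p = 0.986) and -0.78 for B3gat3 (1431219_at, SE 0.43, limma adjusted p = 0.983).

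The chain is then extended by the Ext family. Ext1 and Ext2 form the copolymerase, and their log2 changes were 0.31 (SE 0.67) and 0.57 (SE 0.56), each with overlapping groups. Extl3, which starts the heparan sulfate chain on the linker, read 9.89 and 9.63 in heterozygotes and 9.96, 10.15 and 9.85 in nulls. Those values lay close together on all 5 arrays and overlapped, and the interval of the change ran from -0.67 to 1.12. Extl2, a related transferase, differed by 0.36 (SE 0.39). Extl1 read 4.24 and 3.79 in heterozygotes and 2.31, 3.43 and 3.28 in nulls. Every null value was below both heterozygotes and 1 of them was under background, with a log2 change of -1.01 (SE 0.50, limma adjusted p = 0.974). With values raised to background the change was -0.75.

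N-deacetylase and N-sulfotransferase enzymes open the sulfation program, and the epimerase Glce converts glucuronic to iduronic acid. Glce read 7.35 and 7.36 in heterozygotes and 7.73, 7.81 and 7.91 in nulls. All 3 nulls lay above both heterozygotes, in a narrow range, at a log2 change of 0.45 (SE 0.33, 1.37-fold, limma adjusted p = 0.991). Its second probe set above background on every array (1425876_a_at) overlapped, with a change of 0.07. Ndst2 spread widely within each group, at 5.89 and 4.05 in heterozygotes and 4.18, 6.02 and 5.44 in nulls. Ndst3 and Ndst4 were at background, Ndst3 on every array and Ndst4 on 4 of 5, so their changes carry no reading of level.

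O-sulfotransferases place sulfate at the 2-O, 6-O and 3-O positions. Hs2st1, the sole 2-O-sulfotransferase, read 8.48 and 8.89 in heterozygotes and 8.80, 8.81 and 8.51 in nulls. Its groups overlapped fully, and the log2 change was 0.02 with a 95% interval of -0.92 to 0.96. Hs6st1 and Hs6st2, which act at the 6-O position, had changes of -0.27 (SE 0.41) and -0.35 (SE 0.37), and Hs6st3 was at background throughout. Among 3-O-sulfotransferases, whose products include rare protein-binding motifs, Hs3st1 was at background. Hs3st3a1 read 2.46 and 4.13 in heterozygotes and 3.76, 0.89 and 2.08 in nulls, above background on 1 array of each group and overlapping (log2 change -1.05, SE 1.02). Hs3st3b1 was above background on 4 arrays, and its brightest probe set had a change of 0.67 (SE 0.96).

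Sulf1 and Sulf2 are secreted enzymes that remove 6-O-sulfate from finished chains and so change how the chains bind growth factors. Sulf1 (1438200_at) had log2 signals of 4.22 and 4.33 in heterozygotes and 5.90, 6.54 and 5.90 in nulls. All 5 values were above background, and the lowest null lay well over the highest heterozygote. The means were 4.28 ± 0.08 (SD, n = 2) and 6.12 ± 0.37 (SD, n = 3), a 3.58-fold higher signal in nulls (log2 change 1.84, SE 0.39). Adjusted over all probe sets this did not pass, with limma adjusted p = 0.505 in the untrended and 0.56 in the trended fit (unadjusted 0.00574 and 0.000808). Over 12 other settings, 5 of them with an array left out, the change lay between 1.28 and 1.95 and the adjusted p between 0.421 and 0.851.

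The other probe sets of Sulf1 were dim. At 1436319_at the gene read 0.95 and 5.01 in heterozygotes and 4.02, 3.08 and 2.45 in nulls, above background on 1 array of each group, and at 1446416_at it was above background on 1 null array. Neither separated the groups, with limma adjusted p of 0.999 and 0.991. Sulf2 read 9.04 and 9.11 in heterozygotes and 9.23, 9.73 and 9.48 in nulls. All nulls lay above both heterozygotes by a small margin (log2 change 0.41, SE 0.36, 1.33-fold, limma adjusted p = 0.992). Its probe sets 1430388_a_at and 1442408_at overlapped, at -0.03 and 0.18, and the brightest is an _x_at set, a type that can match more than 1 transcript.

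Mesenchyme and blood markers also tended apart between the groups, though neither limma fit called any of them. The lowest limma adjusted p in the untrended fit was 0.832 for mesenchyme and 0.485 for erythroid markers. In bulk RNA fewer cells of a type and less RNA per cell cannot be told apart. Of 20 mesenchyme markers 18 had a positive log2 change, 10 of them with every null array above both heterozygotes. Over 18193 genes the shares were 49.1% and 9.82%. Tagln (-1.66, above background on 1 array, every null below both heterozygotes) and Pdgfrb (-0.90) were negative. The summed linear signal of the 20 was 3050 to 3191 in heterozygotes and 4245 to 4411 in nulls, and Twist1 was above background on no array. Bright markers weigh most in this sum, above all Fn1 (log2 change 0.74) and Vim (0.02). The median deviation of the list from each marker's mean was -0.25 and -0.45 in heterozygotes. In null replicates 1, 2 and 3 it was 0.48, 0.20 and 0.45. As for Sulf1, the sum on every null array lay above both heterozygotes, and null replicate 2 was highest for both. The 2 heterozygotes, close together in each, were in opposite order. All 8 measured erythroid markers had a negative change, with a summed signal of 9536 to 11971 in heterozygotes and 7946 to 8842 in nulls, and Hba-a1 was above background on no array. Summed signal of endothelial markers overlapped, at 197 to 310 and 162 to 385, as did that of bud epithelium, at 4001 to 4884 and 4863 to 6266. Of the 9 bud epithelium markers 3 had a positive and 6 a negative change. Groups stood apart for 4 of them, against 19.9% of all genes, with nulls above for Krt8 and Krt18 and below for Pdx1 and Nkx6-1. The summed signal did not overlap for neural crest, glia and neuron markers (205 to 273 against 277 to 329). Nor did it for mesothelium markers (50 to 78 against 100 to 137). Of the 6 neural crest, glia and neuron markers 3 were positive and 3 negative, and the groups of each overlapped. Of the 4 mesothelium markers 2 were positive and 2 negative, only Krt19 had groups that stood apart, and Msln was above background on no array. The summed signal of leukocyte markers overlapped (71 to 224 against 88 to 147). The part of these cell types in the values of Sulf1 or of any other heparan sulfate gene was not tested.

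**Figure D3:**
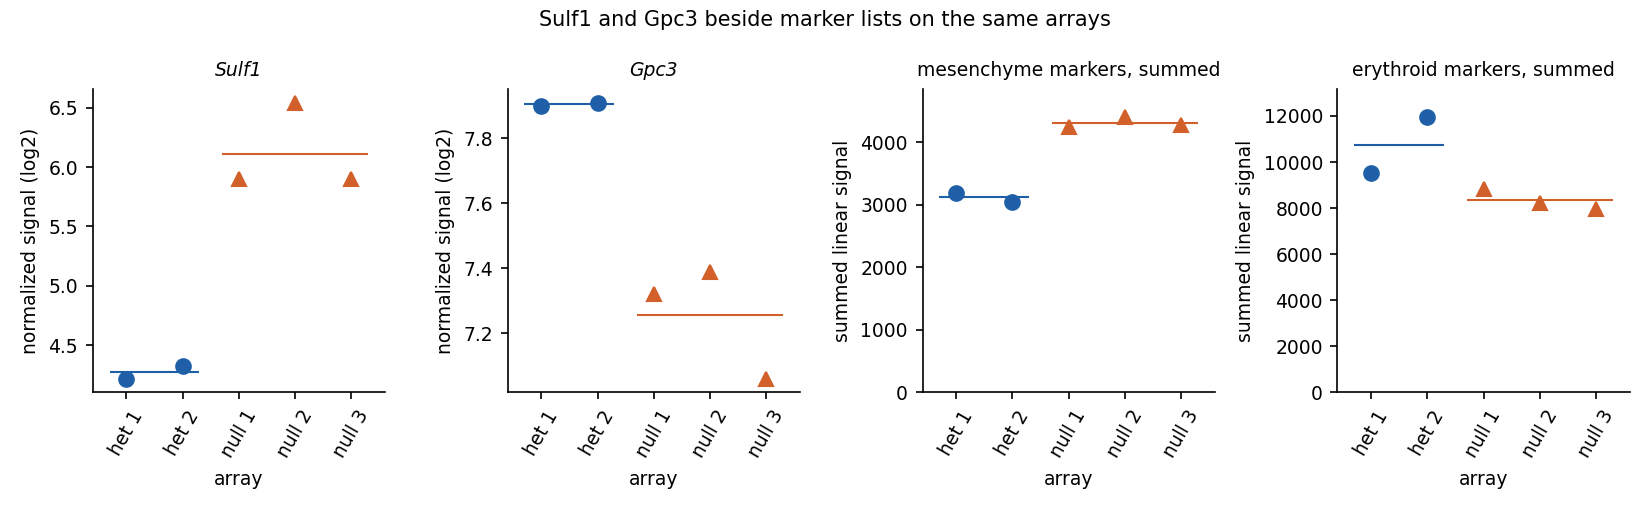
Signal on each array of Sulf1 and Gpc3 (normalised log2, axes not starting at 0) beside the summed linear signal of 20 mesenchyme and 8 erythroid markers. Circles are heterozygotes, triangles nulls and lines group means. Sulf1 and the mesenchyme sum are higher on all 3 null arrays, and Gpc3 and the erythroid sum are lower on them.

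Sulfotransferases draw on PAPS, the active sulfate donor, which Papss1 and Papss2 make. Papss1 read 7.48 and 7.80 in heterozygotes and 7.75, 7.24 and 7.36 in nulls, overlapping, with a log2 change of -0.19 (95% interval -1.16 to 0.78). Papss2 read 6.25 and 7.80 in heterozygotes and 7.48, 7.34 and 7.42 in nulls at its brightest probe set. Its change of 0.39 (SE 0.56) rests on heterozygote replicate 1, and was -0.38 without that array.

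Syndecans are transmembrane core proteins, and Sdc1 and Sdc4 are common on epithelia. Sdc1 read 8.56 and 8.28 in heterozygotes and 8.0, 8.30 and 8.31 in nulls, overlapping at a log2 change of -0.22 (SE 0.35). Its other probe sets above background on every array, 1415944_at and 1415943_at, put all nulls below both heterozygotes, with changes of -0.56 and -0.58 (limma adjusted p = 0.991 for both). Sdc4 went the other way at both its probe sets. It read 6.06 and 6.22 in heterozygotes and 6.26, 6.83 and 6.81 in nulls at the brighter (change 0.49, SE 0.38, limma adjusted p = 0.991), and 5.25 and 5.69 against 6.60, 6.30 and 6.16 at 1417654_at (change 0.88, SE 0.38, adjusted p = 0.939). Every null array lay above both heterozygotes at each probe set. Sdc2 had changes of 0.46 (SE 0.55) with overlapping groups and, at 1448545_at, of 1.56 (SE 0.48, unadjusted p = 0.0242, limma adjusted p = 0.793) with all nulls above. Sdc3, the syndecan best known from neural tissue, overlapped at -0.20 (SE 0.65).

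Glypicans are held to the membrane by a lipid anchor and modulate Hedgehog and Wnt signalling. Gpc3, whose loss causes overgrowth in mice and humans, read 7.90 and 7.91 in heterozygotes and 7.32, 7.39 and 7.06 in nulls. The heterozygotes were nearly equal and every null lay below them, with means of 7.90 ± 0.01 (SD, n = 2) and 7.25 ± 0.17 (SD, n = 3). The signal was 1.57-fold lower in nulls (log2 change -0.65, SE 0.34, 95% interval -1.54 to 0.24), with limma adjusted p = 0.979 and, in the trended fit, 0.976 (unadjusted 0.0277). Gpc3 has 1 probe set, and its change stayed between -0.81 and -0.55 over the 12 other settings. Gpc1, Gpc2 and Gpc6 had changes of -0.05, 0.32 and 0.01 at their brightest probe sets, and Gpc4 had 0.76 (SE 0.63), all with overlapping groups. Gpc5 was above background on 1 heterozygote array only, so no fold is given.

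Agrin is a basement membrane core protein. Agrn read 9.68 and 9.91 in heterozygotes and 10.12, 10.16 and 9.96 in nulls, with all nulls above at a log2 change of 0.29 (SE 0.34, limma adjusted p = 0.999). At 1443980_at it read 6.31 and 6.10 against 6.33, 7.18 and 7.19 (change 0.69, SE 0.44). The nulls again lay above both heterozygotes, null replicate 1 by a small margin.

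Probe sets of the same gene were compared for direction, all of them read on the same RNA pools. Of the 35 genes, 19 had more than 1 probe set above background on at least 2 arrays. In 9 of the 19 all such probe sets had the same sign, and in 10 they did not. Sdc1, Sdc2, Sdc4, Agrn, Ext2, Extl2, Glce, Hs6st2 and Sulf1 were the 9. A shared sign did not mean close values, as Hs6st2 ran from -3.01 to -0.35 and Sulf1 from 0.20 to 1.84. The spread was wide in Gpc6, from -0.99 at 1428774_at to 1.18 at 1441438_at (unadjusted p = 0.0288, limma adjusted p = 0.822), and in Papss2, from -0.92 at 1421989_s_at to 0.39. For Hs3st3b1 the brightest probe set had a positive change and the others were negative, with every null below both heterozygotes at all 3 of them. A second probe set of Hs6st2 (1420939_at) was above background on both heterozygotes and on no null, at least 1.88-fold lower in nulls (limma adjusted p = 0.979). In all, 4 of the 45 other probe sets had an unadjusted p under 0.05 in the untrended fit, against 5.52% of all probe sets, and 0 had an adjusted p under 0.05.

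**Figure D4:**
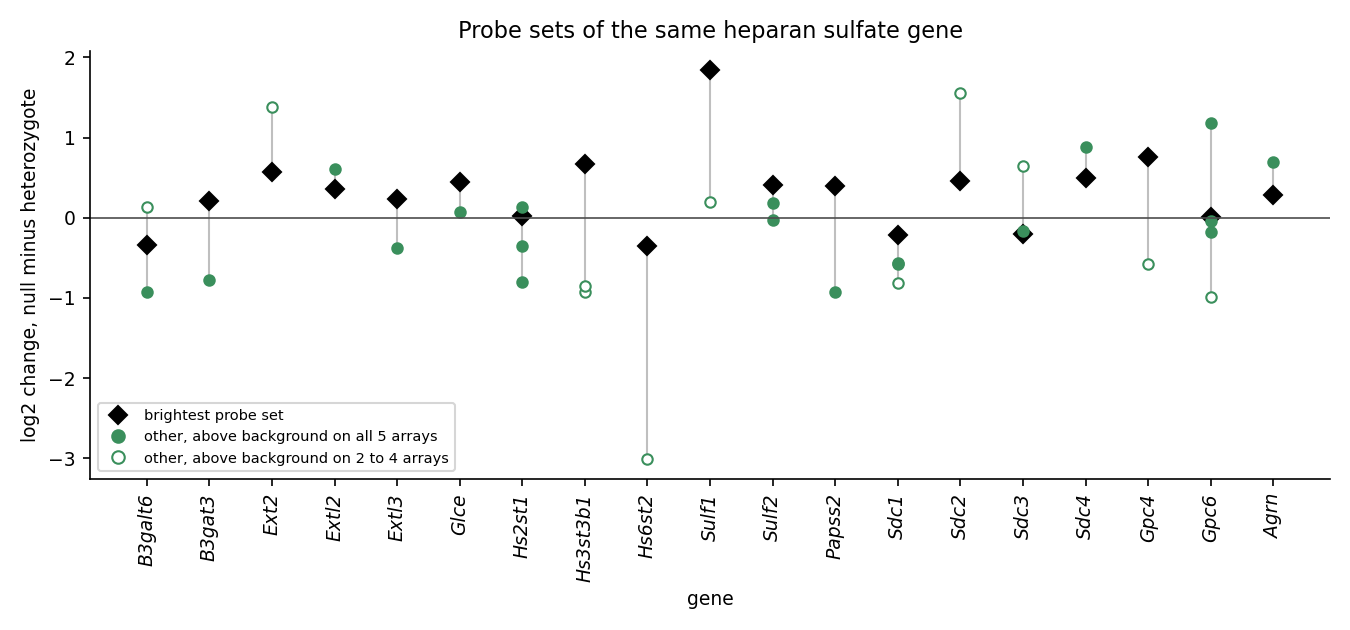
Log2 change, null minus heterozygote, at each probe set above background on at least 2 arrays, for the 19 heparan sulfate genes with more than 1. Diamonds are the brightest probe set, filled circles others above background on all 5 arrays and open circles others above it on 2 to 4. The points of Sdc1, Sdc4 and Agrn lie on 1 side of 0, and those of Gpc6 spread from -0.99 to 1.18.

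Promoter windows are shown for Gpc3 and Sdc4, a core protein with all nulls below and one with all nulls above, and for the sulfatase Sulf2. Ptf1a binds DNA in a complex that reads an E-box next to a TC-box. The sequences are from RefSeq (GRCm38.p6), 250 bases before to 50 after a gene's start, printed 5′ to 3′ on the gene's strand, with matches to the E-box CANNTG or to TGGGAA on either strand in capitals.
Gpc3, chrX:52613925-52614224, minus strand: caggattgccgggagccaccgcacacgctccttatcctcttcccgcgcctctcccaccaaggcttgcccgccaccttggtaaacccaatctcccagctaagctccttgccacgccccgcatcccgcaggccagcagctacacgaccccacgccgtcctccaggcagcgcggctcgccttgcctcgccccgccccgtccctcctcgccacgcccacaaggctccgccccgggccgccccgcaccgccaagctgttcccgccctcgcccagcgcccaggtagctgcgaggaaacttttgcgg
Sdc4, chr2:164443139-164443438, minus strand: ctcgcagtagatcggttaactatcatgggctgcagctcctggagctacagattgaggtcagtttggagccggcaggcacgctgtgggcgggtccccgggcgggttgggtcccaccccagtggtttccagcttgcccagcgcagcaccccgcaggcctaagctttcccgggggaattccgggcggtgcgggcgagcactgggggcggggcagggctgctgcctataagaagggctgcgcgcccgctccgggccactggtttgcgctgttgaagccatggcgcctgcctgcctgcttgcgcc
Sulf2, chr2:166155634-166155933, minus strand: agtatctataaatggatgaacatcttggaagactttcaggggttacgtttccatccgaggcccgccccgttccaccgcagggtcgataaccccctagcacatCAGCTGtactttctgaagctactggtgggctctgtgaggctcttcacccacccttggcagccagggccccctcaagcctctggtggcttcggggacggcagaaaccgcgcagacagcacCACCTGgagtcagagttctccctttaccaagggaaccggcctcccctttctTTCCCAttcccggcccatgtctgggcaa
The Sulf2 window holds 2 E-boxes and 1 TGGGAA match, and the Gpc3 and Sdc4 windows hold neither. A second Sulf2 window (chr2:166155236-166155535) has 2 E-boxes and no TGGGAA. Of all 32851 windows, 72.3% hold an E-box, 25.6% hold TGGGAA and 19% hold both. Of 35 windows for 28 of the heparan sulfate genes, the shares were 51.4%, 11.4% and 8.57%. These are matches of letters and say nothing of binding.

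Other genes of the pathway were read in the same way. None of the 46 measured was called by either limma fit (the untrended one gave 2 an unadjusted p under 0.05, the trended one gave 0), 18 had a positive and 28 a negative log2 change, and the median was -0.125. The groups stood apart for 8 of the 46 (3 with nulls above, 5 below), against the background of 19.9%. Perlecan (Hspg2) and collagen XVIII (Col18a1), basement membrane core proteins like agrin, overlapped at -0.13 (SE 0.36) and -0.10 (SE 0.38). Among 10 genes that supply sugar nucleotides and sulfate, 2 were positive and 8 negative, within -0.36 to 0.43, and Slc35b2, a Golgi PAPS transporter, read 4.95 and 5.10 against 5.44, 5.66 and 5.28. All its null values lay above the heterozygotes (change 0.43, SE 0.35, limma adjusted p = 0.991). A dimmer probe set of Slc35b2 (1429007_at) overlapped, at -0.83. Uxs1, of the same list, read 8.61 and 8.44 against 8.13, 8.20 and 8.32. All its null values lay below the heterozygotes (change -0.31, SE 0.34, limma adjusted p = 0.999). Another probe set of Uxs1 above background on every array (1426275_a_at) overlapped, with a change of 0.02.

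Chondroitin and dermatan sulfate chains share the linker with heparan sulfate, and 16 genes of their synthesis were measured, 9 positive and 7 negative. Csgalnact1, which starts the chondroitin chain, read 4.70 and 5.10 in heterozygotes and 4.11, 2.03 and 3.98 in nulls, all nulls below and 2 of the 3 above background (log2 change -1.53, SE 0.76, limma adjusted p = 0.974). At its other probe set (1452365_at), above background on 1 null array only, all nulls lay above (change 1.68). Dse, the dermatan sulfate epimerase, was under background in both heterozygotes (2.61 and 1.38) and above it in nulls (3.46, 3.17 and 3.61), at least 1.19-fold higher (unadjusted p = 0.0381, limma adjusted p = 0.861). Of 7 lysosomal enzymes that break heparan sulfate down, 3 were positive and 4 negative, with none called. Hgsnat alone among them had groups that stood apart, at 7.13 and 7.28 against 6.75, 6.83 and 6.70 (change -0.44, SE 0.33, limma adjusted p = 0.991).

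How far a null result can be read is set by the intervals. For the 26 genes above background on all arrays the median SE of the log2 change was 0.40, and their changes ranged from -0.65 to 1.84. An exact permutation test of 2 arrays against 3 cannot go below p = 0.1, and none was run for single genes.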

How the data were processed

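RNA was measured on 5 one-colour Affymetrix mouse genome arrays. The authors deposited 1 linear signal intensity for each probe set and array. The submitters' processing notes name GCOS and RMA, without version or role, and no source used here says how background was removed. The plan allowed for log2 values, and the intensities were linear (array medians spanned 0.354 on a log2 scale), so they were log2-transformed without an offset and quantile normalised.

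After 64 control probe sets were left out, 45037 were fitted with limma 3.58.1 in R 4.3.3 (lmFit, eBayes, genotype as sole term, two-sided, Benjamini-Hochberg over all 45037, threshold 0.05). The fit was tested on simulated data. The replicate numbers of the labels were checked for pairing and gave no sign of it (correlation of deviations -0.033 and 0.011 for the same-numbered pairs). Deviations of 2 heterozygotes from their mean mirror each other, so this check cannot exclude pairing. Gene names came from GEO's platform annotation, and all 35 matched a RefSeq gene by ID.

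Values on every array are given for genes above background on at least 2 arrays with an absolute log2 change of 1 or more, an unadjusted p under 0.05 or groups that do not overlap, and for the brightest gene of each role. Other genes and probe sets are named as illustrations, chosen after their values were seen. Members and lists were chosen with earlier results of these data known. A background level replaces detection calls, and a group wholly under it gives only a bound ("at least"): the brighter group's mean against the mean, over the dimmer group's arrays, of the background level or the measured value, whichever is higher. The number of arrays limits the precision. Alternatives were the trended fit (eBayes with both trend and robust set), other scalings, an offset of 16, values raised to background, dim probe sets left out, a replicate block and each array left out.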

Additional observations from a re-analysis of the deposited data

How the results depend on the processing

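The untrended limma fit called 0 of all probe sets and 0 heparan sulfate genes in every alternative run (0 to 0 with an array left out), while the trended fit called 8 of all probe sets and 0 of these genes. The median log2 change of the 35 genes, 0.226, was 0.113 with median centring, 0.068 without normalisation, 0.021 with values raised to background, 0.075 with the offset of 16, 0.119 with the replicate block and -0.189 as a mean over all probe sets of a gene, and it ranged from -0.032 to 0.20 with an array left out. With dim probe sets left out, the median of the 30 genes kept was 0.235. The median of all probe sets, -0.01 in the main fit, moved as well. It was -0.073 with median centring, -0.117 without normalisation and -0.06 with values raised to background. With the offset of 16 it was 0.003, and with the replicate block 0.002. Of the 35 genes 17 kept their sign to 2 decimals in 12 settings and 18 did not, none of them called. Signs reversed with median centring for Hs2st1 (-0.12) and Gpc6 (-0.10), without normalisation for Extl3 (-0.01), Hs2st1 (-0.17) and Gpc6 (-0.14), and with values raised to background for Ndst4 (-0.02) and Hs6st3 (-0.06). With an array left out signs reversed for 16 genes, whose ranges were Xylt2 -0.52 to 1.77, B4galt7 -0.45 to 0.01, B3gat3 -0.27 to 0.69, Ext1 -0.12 to 0.83, Ext2 -0.03 to 1.17, Ndst2 -0.68 to 1.16, Ndst4 -0.17 to 0.76, Hs2st1 -0.18 to 0.23, Hs3st1 -1.48 to 0.39, Hs3st3b1 -0.15 to 1.3, Hs6st1 -0.64 to 0.09, Papss2 -0.38 to 1.17, Sdc3 -0.74 to 0.17, Gpc1 -0.30 to 0.24, Gpc2 -0.49 to 1.14 and Gpc6 -0.35 to 0.36. Other probe sets of a gene had the opposite sign to the brightest at log2 changes of B3galt6 0.14, B3gat3 -0.78, Extl3 -0.38, Ndst3 1.38, Ndst4 -2.50, Glce -2.51, Hs2st1 -0.35 and -0.80, Hs3st3b1 -0.92, -0.63 and -0.85, Hs6st2 0.87, Sulf2 -0.03, Papss2 -0.92 and -2.26, Sdc2 -0.31, Sdc3 0.64, Gpc4 -0.58, Gpc6 -0.18, -0.04 and -0.99. The cause was not tested. With the replicate block Sulf1 had 1.95 (adjusted p = 0.851) and no call changed. Dim signal limits the genes under background, whose log2 values scatter widely.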
